A study of Mus musculus with 4 samples.

Results

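The subject is the accessible chromatin at the very start of the mouse autosomes. Members were the regions on chromosomes 1 to 19 whose start lies below 4 Mb on build mm10. They number 619, out of 64525 regions in the whole list. The rule used position alone, so the number, width and gene content of these regions were free to vary. They were set against the 1852 regions that start between 4 and 8 Mb on the same chromosomes.

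The regions were found by ATAC-seq, in which a transposase inserts sequencing adapters into DNA that is not wrapped in nucleosomes. Naive CD4+ T cells were taken from the spleen and the tissue labelled pLN of mice labelled DDX55 KO (2 libraries) and WT (2 libraries); DDX55 is an RNA helicase. The allele, the Cre driver if any, the strain and the age are not in the labels, which do not say whether the 2 libraries of a genotype came from separate mice. The authors deposited a single list for all 4 libraries, with no value per library, so every statement below describes both genotypes together, and no spread between libraries can be given. Of 10 markers of naive CD4 T cells (among them Cd3e, Cd4, Tcf7 and Ccr7), 10 had a region at a gene end, whereas 0 of 4 B cell markers and 0 of 2 macrophage markers did. Over all autosomal protein-coding genes the share was 54.4%. Inside the gene, Pax5 held 5 regions, Blk 2 and Adgre1 1, and Cd79a, Ms4a1 and Cd68 held 0.

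Mouse chromosomes carry the centromere at the end with the lowest coordinates. The centromere itself and its flanking arrays of satellite DNA are missing from the assembly, which fills their place with unknown bases. In living cells that satellite DNA is packed into constitutive heterochromatin, marked by methylation of histone H3 lysine 9 and histone H4 lysine 20 and usually closed to transposase. The list held 0 autosomal regions below 3 Mb, and the lowest region of any autosome began at position 3000003, on chromosome 9. The members therefore lie in the first 1 Mb of mapped sequence (3 to 4 Mb, called the start window here). How far each lies from the centromere cannot be read from these coordinates.

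The base sequence under each region was not analysed here. The promoters of the start windows (listed for 163 of the 197 protein-coding genes there) can be shown, as listed by RefSeq on GRCm38.p6, the assembly that mm10 names. Each window below holds 250 bases before and 50 bases after an annotated start site, read 5′ to 3′ on the strand of the gene, with every CpG dinucleotide in capitals. The first group shows 3 promoters lying in wide accessible regions, at Krit1 (chr5:3802915-3803214, plus strand), Nmt2 (chr2:3283962-3284261, plus strand) and Asxl2 (chr12:3426607-3426906, plus strand).
Krit1: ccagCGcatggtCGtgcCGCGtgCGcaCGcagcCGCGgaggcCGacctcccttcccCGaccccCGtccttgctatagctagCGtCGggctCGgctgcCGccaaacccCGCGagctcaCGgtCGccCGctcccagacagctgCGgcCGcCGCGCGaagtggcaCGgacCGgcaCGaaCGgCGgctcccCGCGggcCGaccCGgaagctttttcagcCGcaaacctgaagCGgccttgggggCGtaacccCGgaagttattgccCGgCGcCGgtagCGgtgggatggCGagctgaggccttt
Nmt2: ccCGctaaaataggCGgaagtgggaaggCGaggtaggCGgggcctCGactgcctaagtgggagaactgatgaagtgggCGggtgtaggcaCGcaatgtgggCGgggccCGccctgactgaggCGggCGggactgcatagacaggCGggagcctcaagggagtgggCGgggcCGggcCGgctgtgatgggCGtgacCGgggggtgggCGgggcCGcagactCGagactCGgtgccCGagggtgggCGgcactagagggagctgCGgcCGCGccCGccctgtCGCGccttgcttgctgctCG
Asxl2: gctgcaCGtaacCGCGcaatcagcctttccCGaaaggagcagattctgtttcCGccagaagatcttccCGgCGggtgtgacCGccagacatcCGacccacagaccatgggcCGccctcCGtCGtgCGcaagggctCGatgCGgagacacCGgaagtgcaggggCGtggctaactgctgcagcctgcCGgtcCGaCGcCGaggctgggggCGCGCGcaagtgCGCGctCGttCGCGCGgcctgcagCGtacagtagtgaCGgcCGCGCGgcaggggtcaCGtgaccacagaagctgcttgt
The second group shows 3 promoters with no region over them, at Calcr (chr6:3763574-3763873, minus strand), Cd209a (chr8:3748935-3749234, minus strand) and Retn (chr8:3655520-3655819, plus strand).
Calcr: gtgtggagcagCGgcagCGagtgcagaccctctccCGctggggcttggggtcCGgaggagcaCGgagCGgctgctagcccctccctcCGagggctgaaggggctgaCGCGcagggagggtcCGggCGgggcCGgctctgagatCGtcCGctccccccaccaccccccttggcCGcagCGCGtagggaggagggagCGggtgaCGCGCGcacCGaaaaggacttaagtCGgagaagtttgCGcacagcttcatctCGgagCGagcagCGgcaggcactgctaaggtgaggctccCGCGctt
Cd209a: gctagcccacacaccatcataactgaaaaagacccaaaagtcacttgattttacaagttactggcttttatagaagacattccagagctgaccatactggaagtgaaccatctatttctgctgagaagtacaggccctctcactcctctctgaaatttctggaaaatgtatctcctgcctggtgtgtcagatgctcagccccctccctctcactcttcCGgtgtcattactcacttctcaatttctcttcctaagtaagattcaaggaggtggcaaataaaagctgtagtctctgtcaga
Retn: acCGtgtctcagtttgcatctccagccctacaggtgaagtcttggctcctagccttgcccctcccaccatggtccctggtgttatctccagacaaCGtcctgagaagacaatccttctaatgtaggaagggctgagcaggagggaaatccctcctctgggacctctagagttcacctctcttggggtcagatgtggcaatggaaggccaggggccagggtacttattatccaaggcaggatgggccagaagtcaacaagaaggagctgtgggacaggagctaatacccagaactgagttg
The Krit1, Nmt2 and Asxl2 windows held 43, 30 and 36 CpG dinucleotides. The Cd209a and Retn windows held 1 and 2. The Calcr window held 29 and was closed all the same.

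Accessible regions were dense next to the unassembled sequence, and most of the surplus lay outside genes. The start windows held 32.6 regions per Mb, against 24.4 per Mb from 4 to 8 Mb. Regions outside protein-coding genes made up 16.9 per Mb of the start windows and 10.2 per Mb of the 4 to 8 Mb stretch. Their density was higher in the start window on 12 chromosomes, lower on 6 and equal on 1, with medians of 14 and 11 per Mb. The gap was largest on chromosomes 3, 4, 9, 16 and 17. Regions at gene ends, meaning within 1 kb of either annotated end of a protein-coding gene, came to 5.26 per Mb in the start windows and 5.01 per Mb from 4 to 8 Mb. Those inside genes but away from the ends came to 10.4 and 9.12 per Mb. Regions covered 1.60% of the start windows and 1.04% of the bases from 4 to 8 Mb.

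Chromosomes varied widely, from 67 regions in the start window of chromosome 11 to 4 in that of chromosome 14. The mean ± SD over the 19 autosomes was 32.6 ± 14.5 per Mb for the start windows and 24.4 ± 10.9 per Mb for 4 to 8 Mb. It was higher in the start window on 13 chromosomes, lower on 5 and equal on chromosome 1. The mean difference of 8.21 per Mb had p = 0.0200 in a two-sided permutation test paired by chromosome (n = 19), and an adjusted p = 0.0799 over the 4 measures tested, which missed the threshold of 0.05. Against 8 to 12 Mb in place of 4 to 8 Mb the difference was 9.75 per Mb and passed (permutation adjusted p = 0.0230). It also passed without chromosome 10 (9.49 per Mb, permutation adjusted p = 0.0342) and without chromosome 19 (9.83 per Mb, permutation adjusted p = 0.0166). Over all alternatives the adjusted p ran from 0.0166 to 0.118 by the same permutation test. In each alternative only the p of region density was replaced before adjustment, and those of the other measures stayed as reported.

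**Figure D1:**
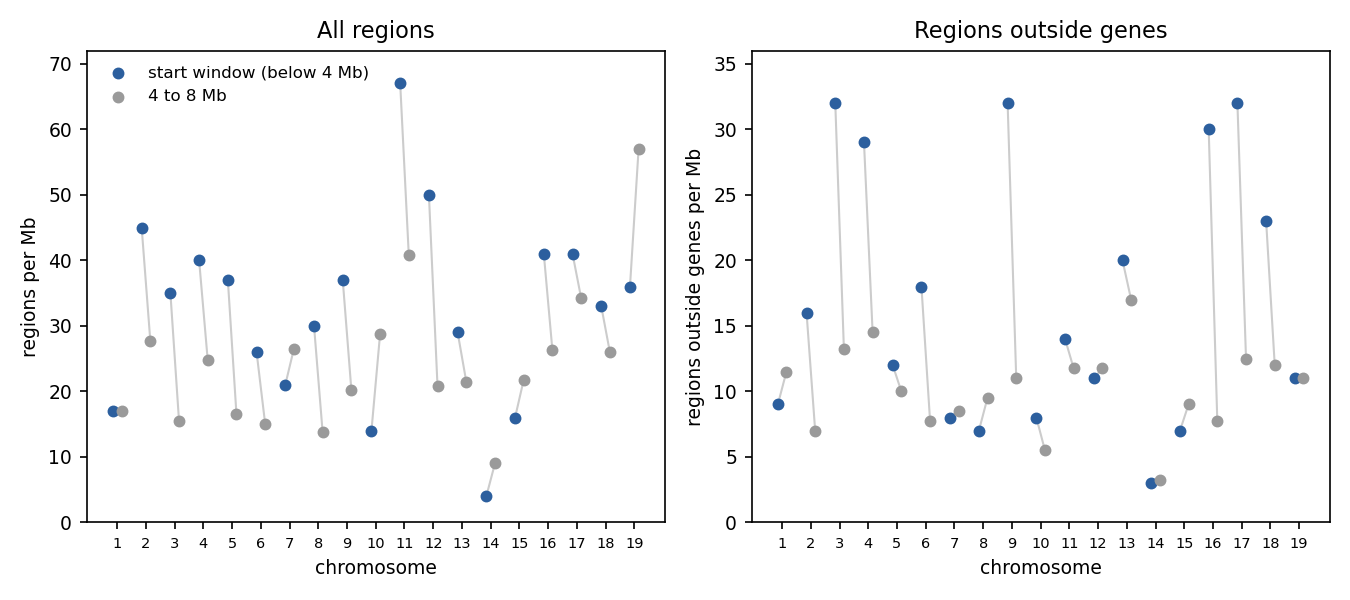
Regions per Mb (left) and regions outside protein-coding genes per Mb (right) for each autosome, with the start window in blue at the left of each pair and 4 to 8 Mb in grey. The start window of chromosome 11 stands highest at 67 per Mb, and chromosomes 3, 9 and 17 each have 32 regions outside genes in it.

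The largest ratios stood on chromosome 12 (50 regions per Mb in the start window, against 20.8 from 4 to 8 Mb), chromosome 3 (35 against 15.5), chromosome 5 (37 against 16.5) and chromosome 8 (30 against 13.8). These 4 differ in what they hold. On chromosome 3, 32 of the 35 members lay outside genes and the window has a single coding gene, Hnf4g, a nuclear receptor of gut and liver. On chromosome 12, 33 of the 50 members lay inside genes. On chromosome 8, 14 of the 30 lay at gene ends. The opposite order was seen on chromosomes 10 (14 against 28.8), 14 (4 against 9), 15 (16 against 21.8), 7 (21 against 26.5) and 19 (36 against 57).

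The density was uneven within the start windows. Counted in steps of 100 kb and summed over the 19 autosomes, the first 4 steps held 82, 79, 78 and 83 regions. The 40 steps from 4 to 8 Mb held between 27 and 72, with a median of 45.5, so 0 of them reached 78. From 400 kb on, the 6 remaining steps of the start windows held 41 to 63 regions, inside that range. The first 400 kb thus had 42.4 regions per Mb, and 68.6% of them lay outside genes. The next 600 kb had 26.1 per Mb, with 34.0% outside genes. The cut at 400 kb was chosen after these counts were seen. In the step from 100 to 200 kb, chromosome 11 alone held 30 of the 79 regions.

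**Figure D2:**
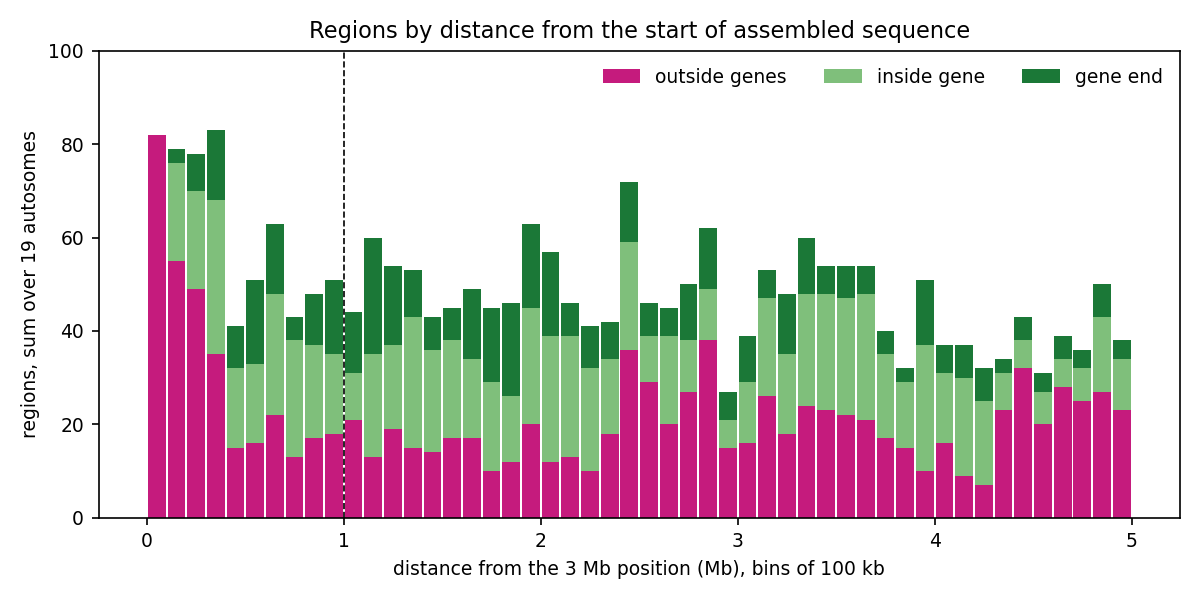
Number of regions in each 100 kb step from the 3 Mb position to 8 Mb, summed over 19 autosomes and coloured by position relative to protein-coding genes. The dashed line marks the 4 Mb limit. The first 4 steps hold 78 to 83 regions each, and the first holds regions outside genes only (82 of 82).

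The first 100 kb were populated on few chromosomes. Of its 82 regions, 67 lay on chromosomes 17 (22 regions), 9 (21), 3 (14) and 4 (10). Another 8 chromosomes had 1 to 4 regions each and 7 had 0. The lowest regions of chromosomes 2 and 4 began at nearly the same position, 3050014 and 3050023, and those of chromosomes 11 and 19 at 3100192 and 3100993. How many bases are called in this stretch of each chromosome was not analysed here. With the first 100 kb left out, the density difference was 7.04 per Mb (permutation adjusted p = 0.117). The difference in regions outside genes was then 3.8 per Mb (14 in the start windows, 10.2 from 4 to 8 Mb), in place of 6.71 per Mb with it.

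The longest runs of regions in the start windows lay at the foot of chromosomes 9 and 17. On chromosome 9, 19 regions followed one another with gaps under 5 kb from 3000003 to 3038307, a span of 38.3 kb of which they covered 45.7%. Their widths ran from 284 to 2576 bp with a median of 767 bp, and 9 of them were 1 kb or wider. On chromosome 17, 15 regions filled 31.3% of the 31.8 kb from 3006808 to 3038616, with a median width of 549 bp. Neither run overlapped an annotated gene of any kind, although Mir101c, a microRNA gene, lay within 1 kb of the last region on chromosome 9. On chromosome 4, 5 regions covered 44.8% of 7.58 kb starting at 3061994.

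Such runs were more frequent than further along the arm. With gaps under 5 kb as the limit, the start windows held 7 runs of 5 or more regions (64 regions in all), and the 4 times longer 4 to 8 Mb stretch held 3 (15 regions). All 5 regions lay outside genes in the run of chromosome 16 (3338880 to 3351966). The remaining 3 runs of the start windows lay on chromosome 11 between 3122185 and 3202537. They crossed the pseudogene Pisd-ps1 and the gene Sfi1, which encodes a centrin-binding protein of the centrosome. Having a neighbour within 5 kb was true of 45.9% of the members and 31.8% of regions from 4 to 8 Mb. Repeat content and mapping quality were not analysed here.

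**Figure D3:**
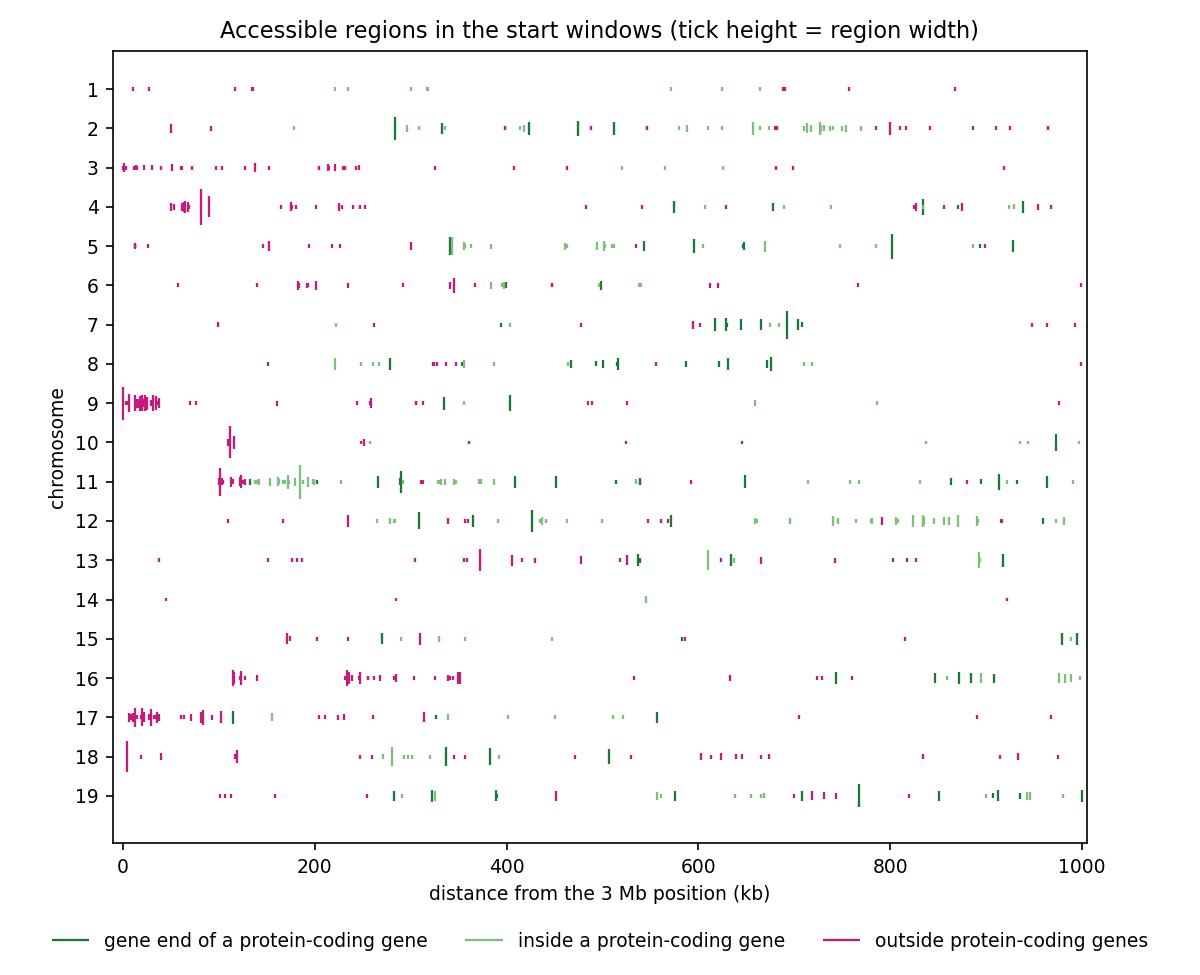
Every member region by chromosome (rows) and distance from the 3 Mb position in kb, with tick height in proportion to width (a minimum height keeps narrow regions visible) and colour for position relative to protein-coding genes. The dense magenta runs at the left of chromosomes 9 and 17 hold 19 and 15 regions.

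Members were slightly wider than their neighbours further along. The median width was 337 bp in the start windows (range 102 to 2750 bp) and 298 bp from 4 to 8 Mb (79 to 2265 bp). Of the members 55 were 1 kb or wider (8.89%), beside 7.40% from 4 to 8 Mb and 6.23% of all autosomal regions. Averaged over chromosome medians, it was 340.0 ± 73.5 bp in the start windows and 300.6 ± 70.2 bp from 4 to 8 Mb (SD, n = 19 chromosomes), and it was larger in the start window on 13 of 19. The difference of 39.4 bp had p = 0.0455 by the paired permutation test and missed the threshold after adjustment (permutation adjusted p = 0.0910). It passed against 8 to 12 Mb (61.8 bp, permutation adjusted p = 0.0245), without chromosome 7 (45.3 bp), without chromosome 10 (45.2 bp), without chromosome 19 (45.7 bp) and against the rest of each chromosome past 4 Mb (46.3 bp, permutation adjusted p = 0.0258). It was 20.1 bp with the first 100 kb left out (permutation adjusted p = 0.505), and the adjusted p over all alternatives ran from 0.0245 to that value.

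Wide regions outside genes were more frequent in the start windows. Of the 322 such members, 26 were 1 kb or wider (8.07%, 95% exact binomial interval 5.34 to 11.6%), against 11 of 778 from 4 to 8 Mb (1.41%, 0.708 to 2.52%). Across all autosomes 2.16% of regions outside genes were that wide. The median was 286.5 bp for these members and 242 bp from 4 to 8 Mb. At gene ends it was 860.5 bp in the start windows and 736 bp from 4 to 8 Mb, and inside genes 301 bp and 275 bp. The share of 1 kb or wider at gene ends ran the other way, with 21 of 100 in the start windows and 25.5% from 4 to 8 Mb. These intervals cover counting error only, and regions in 1 run are not independent.

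**Figure D4:**
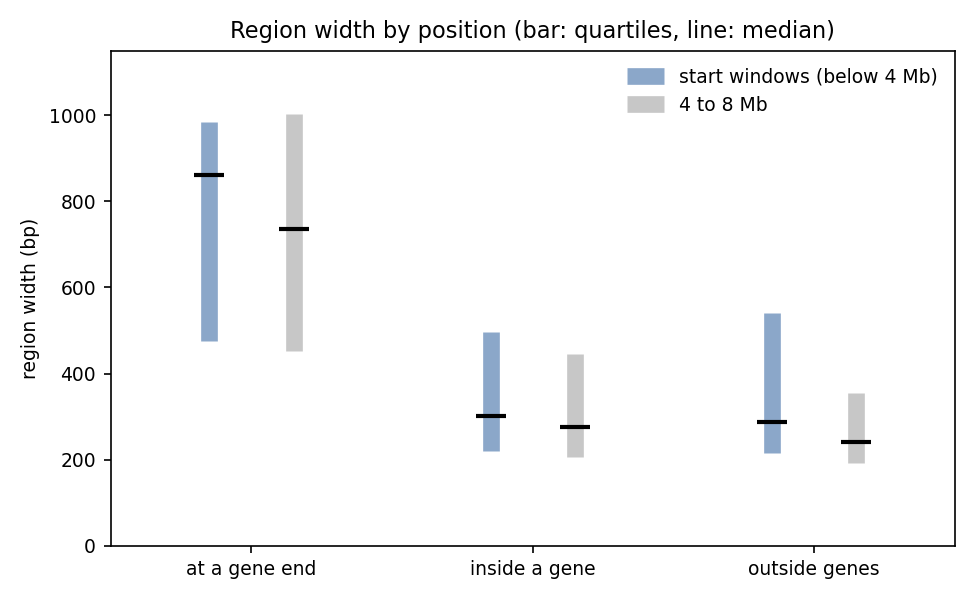
Median (black line) and quartiles (bar) of region width in bp at gene ends, inside genes and outside genes, with the start windows in blue at the left of each pair and 4 to 8 Mb in grey. Outside genes the upper quartile is 541 bp in the start windows and 355 bp from 4 to 8 Mb.

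The wide members outside genes came from 10 chromosomes, but 13 of the 26 lay on chromosomes 9 and 17. Without these chromosomes, 13 of 258 members outside genes were 1 kb or wider (5.04%), against 10 of 684 from 4 to 8 Mb (1.46%), and members outside genes numbered 15.2 per Mb, beside 10.1 per Mb from 4 to 8 Mb. The first 100 kb held 16 of the 26 wide members outside genes. In the other 900 kb, 10 of 240 members outside genes were 1 kb or wider, and the median there was 268.5 bp. On 5 chromosomes the 4 to 8 Mb stretch had more such wide regions per Mb than the start window. The widest member was 2750 bp on chromosome 4 (3081715 to 3084464). The next were 2617 bp inside Sfi1 on chromosome 11 (3184296 to 3186912), 2576 bp at the foot of chromosome 9, 2491 bp on chromosome 10 (3111449 to 3113939) and 2357 bp on chromosome 18 (3004257 to 3006613). Of these 5, only the region in Sfi1 touched a protein-coding gene. The narrowest members were 7 regions of 102 to 116 bp, on chromosomes 4, 7, 13, 15, 17 and 18. Of these, 1 lay in Mboat7, an enzyme that remodels phosphatidylinositol, 1 in Crem, a cyclic AMP-responsive transcription factor, and 1 at an end of Ghr, the growth hormone receptor.

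The member nearest to the 4 Mb limit, 980 bp wide, began at 3999988 on chromosome 19 and lay at ends of Tbx10 and Nudt8. The closest members after it, 235 and 231 bp wide, began at 3999136 on chromosome 6 and 3998653 on chromosome 8, both outside genes. The first region past the limit, 1026 bp wide, began 3.29 kb beyond it on chromosome 16, at an end of Slx4, a scaffold for DNA repair nucleases.

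The start windows were not poor in genes. They held 10.1 ± 7.17 protein-coding genes per Mb, against 8.89 ± 9.69 from 4 to 8 Mb, counted by the middle of the gene (SD, n = 19 chromosomes; difference 1.21, permutation adjusted p = 0.704). Genes of all kinds were denser in the start windows (25.7 against 18.7 per Mb, permutation adjusted p = 0.0400). Genes of alternate scaffolds that the gene table places at 3 Mb or above cannot be told apart and may be in these counts. Pseudogenes made up 32.5% of the 495 genes that begin in the start windows and 22.9% of the 1414 that begin from 4 to 8 Mb. Gene and region numbers did not go together on every chromosome. By that count chromosome 14 had 15 coding genes and 4 regions in its start window, while chromosome 3 had 1 coding gene and 35 regions.

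Of the 197 protein-coding genes whose lower coordinate falls in the start windows, 108 had a region at an end (54.8%, 95% exact binomial interval 47.6 to 61.9%). The share was 56.4% of 672 genes from 4 to 8 Mb and 54.4% of all 20560 autosomal genes, and both values fall inside that interval. Seen from the regions, 100 of the 619 members lay at a gene end (16.2%), against 20.6% from 4 to 8 Mb and 18.2% of all autosomal regions. Averaged over chromosomes the share was 15.5% ± 13.6 in the start windows and 16.6% ± 12 from 4 to 8 Mb (SD, n = 19; difference −1.05 percentage points, permutation adjusted p = 0.729). Over the first 0.5 Mb alone it was 9.91%, against 17.7% from 3.5 to 8 Mb, and this difference passed (−7.76 points, permutation adjusted p = 0.0159). With the limit at 5 Mb its sign turned (5.50 points, permutation adjusted p = 0.111), and it turned without chromosome 19 (0.184 points). Over all alternatives the adjusted p of this share ran from 0.0159 to 0.953 by the same permutation test.

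Among the accessible genes were several that modify chromatin. Of 7 such genes 6 had a region at an end, beside 54.4% of all autosomal genes; this group and those that follow were put together after the values were seen, and carry no test. Suv39h2 (chromosome 2, 3455815 to 3474986) encodes a methyltransferase for lysine 9 of histone H3 at pericentric heterochromatin. It shared a region of 1124 bp with the end of Dclre1c, the Artemis nuclease of V(D)J recombination. Kmt5b (chromosome 19, 3767362 to 3818303), a methyltransferase for lysine 20 of histone H4, carried 1784 bp over its listed start sites. Asxl2, a Polycomb-associated protein, had 7 regions over its body, including that of 1745 bp at its end. Dnmt3a, a DNA methyltransferase, had 11 regions in its body, 248 to 967 bp wide, and 1 of 261 bp just past an annotated end. Morc2a and Patz1, a silencing ATPase and a transcriptional regulator, carried 1009 and 1697 bp. Tasor2, related to the HUSH silencing complex subunit TASOR, had its single region of 1591 bp inside the gene.

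Of 14 genes of RNA processing and ribosomes, picked in the same way, 13 had a region at an end (54.4% of all autosomal genes). Tsen34, a subunit of the tRNA splicing endonuclease, shared the widest gene-end member, 2169 bp, with Mboat7. Rps20 and Rps9, proteins of the small ribosomal subunit, carried regions of up to 1247 and 888 bp. Pes1, which acts in maturation of the large ribosomal subunit, carried 903 bp, and Tgs1, which caps small nuclear RNAs, 901 bp. The exception was Rbm48.

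Of 14 signalling genes 11 had a region at an end, again beside 54.4% of all autosomal genes. Cdk6, a kinase that drives entry into the cell cycle in lymphocytes, had 13 regions over its 190.0 kb, led by 2 of 1417 and 1350 bp. Crem had 7 in its body, Limk2, a kinase of the actin skeleton, 6, and Insr, the insulin receptor, 6. Lyn, a Src-family kinase best known from B and myeloid cells, had 3, one of them 659 bp wide at an end. Ghr had 3 over 265.6 kb, and its widest region at an end measured 116 bp. Pik3ip1, a negative regulator of PI3K in T cells, had 4 in its body and none at an annotated end, but its listed promoter was overlapped by a region. The same held for 7 genes in all, the others being Meig1, Fam107b, Rbm48, Tasor2, Cluap1 and Nlrc3. Shares at gene ends therefore miss some start sites.

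A list of 18 genes with roles in lymphocytes, signalling or basic cell functions gave 15 with a region at an end (83.3%), beside 54.4% of all autosomal genes. The 3 without were Pik3ip1, Lrp5, a Wnt co-receptor with 5 regions in its body, and Xkr4, a phospholipid scramblase relative with 8 regions over 472 kb. The list was drawn up with results on these data known, so the count describes the list and nothing more.

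Sfi1 had the most regions of any gene in the start windows, 21 in its 71.5 kb body. They covered 15.9% of the gene, with widths from 156 to 2617 bp and a median of 419 bp. That is 2.94 regions per 10 kb. Of the 511 autosomal coding genes with 10 or more regions in the body, 2 had more per 10 kb, and their median was 0.495. Fam107b, on chromosome 2, had 11 regions in 77.3 kb, the widest of them 1055 bp.

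Groups of receptors of other leukocytes and of genes of other tissues were put together likewise. Over all autosomal genes 54.4% had a region at an end and 4116 of 20560 had 0 regions in the gene and 10 kb on each side. Of 13 lectin and leukocyte immunoglobulin-like receptor genes, 1 had a region at an end, and 8 had 0 regions from 10 kb before the gene to 10 kb after it. The Cd209 cluster on chromosome 8, lectins of dendritic cells and macrophages, had 0 regions for each of its 5 genes Cd209a to Cd209e. On chromosome 7 the paired receptors Pira1 and Pira2 and Lilra6 also had 0. The exception was Oscar, whose end lies beside Ndufa3, a subunit of mitochondrial complex I, under a shared region of 980 bp. Of 16 nervous system, endocrine and epithelial genes 2 had a region at an end and 11 had 0 nearby. The 2 with a region at an end were Pomc, with 530 bp, and the calcium channel subunit gene Cacng8, with 220 bp, whereas the Cacng8 neighbours Cacng6 and Cacng7 had 0. The Pomc region lay at the end away from its listed promoter, which was closed. Retn, the fat hormone resistin, and Gal, a neuropeptide, had 0 as well. Of the 5 chemosensory receptor genes 0 had a region at an end, but only Olfr161 had 0 nearby, and their median was 3 regions in the gene and 10 kb on each side.

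The start window of chromosome 14 stood at the low end. Its 16 coding genes by lower coordinate include 15 predicted genes of the Gm series. Of the 16, 0 had a region at an end, beside 54.4% of all autosomal coding genes. Of 26 listed promoters there, 0 were overlapped, beside 47.9% over all autosomes, and the median of the 26 was 2 CpG dinucleotides. Gm2977 and Gm3050 hold 6 and 7 of these windows, many with the same CpG number and base content, so the 26 are not independent. Across the start windows 1 of 19 coding genes of the Gm series had a region at an end (5.26%), beside 104 of 164 genes with a name of their own (63.4%). From 4 to 8 Mb the same shares were 11% of 73 and 65.8% of 558. The miR-290 to miR-295 microRNA cluster of chromosome 7, known from embryonic stem cells, had 0 of its 9 genes within 1 kb of a region. These 9 entries form a single locus. They are included in the 17 microRNA genes of the start windows, of which 2 had a region within 1 kb. The share over all autosomal microRNA genes is not given. All 9 had 1 region within 10 kb, of 303 bp, inside Nlrp12. It began at 3222006 and Mir295 ends at 3220841, just past the 1 kb limit, so the count of 0 depends on that limit.

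Some members lay at the ends of neighbouring genes. Of the 100 gene-end members, 22 lay at ends of 2 or more coding genes, with a median width of 904.5 bp, beside 835 bp for the 78 at a single gene. The widest were those of Mboat7 and Tsen34 (2169 bp) and of Ankib1 and Krit1 (1959 bp, chromosome 5, 3802038 to 3803996). Krit1, whose promoter is printed above, encodes a scaffold of cell junctions, and Ankib1 is a predicted ubiquitin ligase read in the opposite direction. Of the 100, 77 lay within 1 kb of a start site in the RefSeq promoter table. Neither share was computed for gene-end regions outside the start windows.

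Promoter accessibility went with CpG content, with exceptions such as the Calcr promoter printed above. Of 219 listed promoters of coding genes in the start windows, 102 were overlapped by a region (46.6%), beside 47.9% of all 20085 autosomal ones. Accessible promoters had a median of 20 CpG dinucleotides in 300 bases and closed ones a median of 4. With the observed number set against that expected from base composition, 92 promoters had a ratio of 0.6 or more, and 78 of them were accessible (84.8%, 95% exact binomial interval 75.8 to 91.4%). Below that ratio 24 of 127 were (18.9%, 12.5 to 26.8%). From 4 to 8 Mb the shares were 74.1% (68.9 to 78.8%) and 24.1% (19.7 to 28.9%). Alternative promoters of a gene can overlap, so these are not independent counts.

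**Figure D5:**
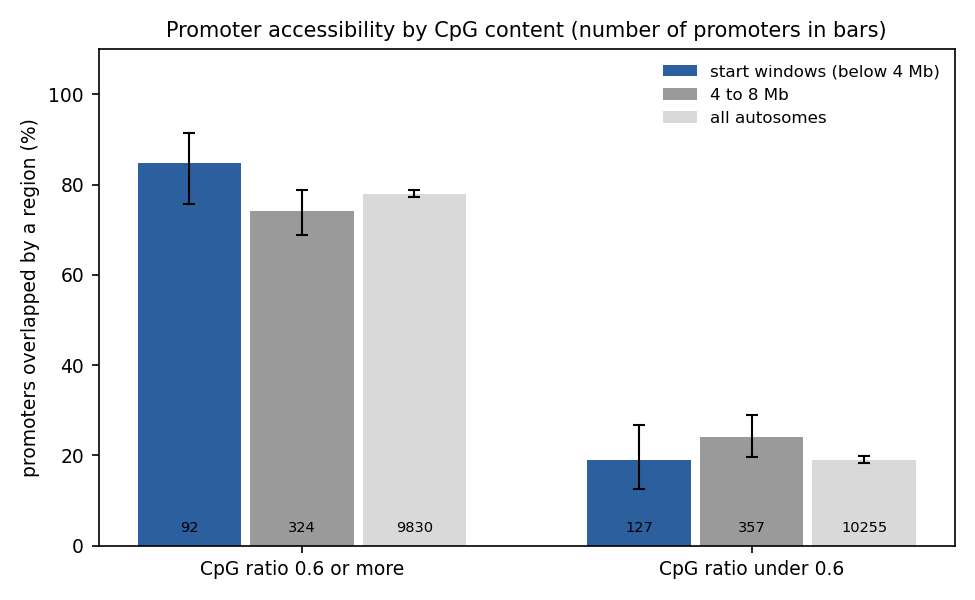
Percent of 300-base promoter windows overlapped by a region, for promoters with a CpG observed-to-expected ratio of 0.6 or more (left) and under 0.6 (right), in the start windows, from 4 to 8 Mb and on all autosomes; error bars are 95% exact binomial intervals. In the start windows 84.8% of the CpG-rich and 18.9% of the CpG-poor promoters were overlapped.

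Short motifs were searched in the same windows on both strands. The ETS core CGGAAG was in 32.4% of the 102 accessible start-window promoters and 12.8% of the 117 closed ones. On all autosomes it was in 36.5% of the accessible promoters and 7.76% of the closed ones. It contains a CpG, of which accessible promoters held more, and the part of that was not tested. TGTGGT, the core of RUNX sites, was in 11.8% of the accessible and 22.2% of the closed start-window promoters (11.9% and 17.4% on all autosomes). In the same order, CCAAT was in 37.3% and 30.8% (39.7% and 36.7% on all autosomes). TATAAA was in 7.84% and 17.1% (5.83% and 19.04% on all autosomes). From 4 to 8 Mb the ETS core was in 36.8% of the accessible and 12.4% of the closed promoters. A match of these letters is a description of the sequence only.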

How the data were processed

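ATAC-seq of naive CD4+ T cells from DDX55 KO (2 libraries) and WT mice (2 libraries) was deposited as 1 list of regions with sequence name, start and end, and no count, score or library. Per the submitters' processing notes the build was mm10 and the tools were MACS3 3.0.0b1, SAMtools 1.15.1, Bowtie2 2.5.08 and fastp 0.12.4, with no roles stated. Not given in the sources used here are how libraries were joined and how duplicates, repeats and the transposase offset were handled. Depth is unknown.

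Starts were converted to 1-based positions. Genes came from a RefSeq table of GRCm38.p6; 328 entries placed below 3 Mb on an autosome, where the list has 0 regions, carry scaffold coordinates as far as can be told and were left out. Densities assume 1 Mb per start window and 4 Mb per comparison stretch. Chromosome values were compared by a two-sided permutation test with 100000 sign flips (n = 19), with Benjamini-Hochberg adjustment over 4 measures. For an alternative setting, the new p of a measure was adjusted together with the p of the other measures as reported. The number of alternatives was not corrected for. The test was tried on simulated counts for region density only. Those counts were independent and held no runs of regions, so they do not show how the test behaves on these data. Chromosomes are not biological replicates, and these p-values measure the spread between chromosomes. Named genes followed a rule: per chromosome the gene with the most regions, up to 2 of known role by width of the region at an end and up to 2 without regions, in alphabetical order; others were chosen after their values were seen, and not all that the rule selects are described. Members and lists were chosen with earlier results of these data known. Python 3.11.15, SciPy 1.17.1, pandas 2.3.3, statsmodels 0.14.6.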

Additional observations from a re-analysis of the deposited data

How the results depend on the processing

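Over 30 tested alternatives other than leaving out a chromosome, 20 kept their direction and their side of the threshold; 4 others, on regions outside genes, carry no test and kept their direction. Against 8 to 12 Mb the differences in region density (9.75 per Mb), width (61.8 bp) and coding gene density (4.53 per Mb) passed the threshold, and the share at gene ends turned its sign (3.16 points); the cause was not tested. Against the whole chromosome past 4 Mb width passed (46.3 bp). Density passed when the window was measured from the first region or gene (9.63 per Mb), which shortens it. With genes of all kinds, gene density passed (7.08 per Mb) and the share at gene ends turned (0.823 points). That share was −7.76 points, and passed, with the window to 3.5 Mb, and 5.50 points to 5 Mb.

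Leaving out each chromosome in turn gave density differences from 7.04 per Mb (without chromosome 12) to 9.83 (without 19), of which 2 passed (without 10 or 19). In every alternative, the p of a measure was adjusted together with the p of the other measures as reported. Adjusting all measures of a setting together was not done, and could change which settings pass. Width ranged from 29.6 bp (without 9) to 45.7 (without 19), of which 3 passed (without 7, 10 or 19). Gene density ranged from 0.167 per Mb (without 8) to 2.57 (without 19), and the share at gene ends from −2.79 (without 8) to 0.184 points (without 19), which turned its sign. Regions outside genes ranged from 5.85 per Mb (without 16) to 7.22 (without 1), against 6.71 as reported. They were 3.8 per Mb without the first 100 kb. Settings on the first 100 kb and on regions outside genes, and the cut at 400 kb, were chosen after seeing the data. A window measured in called bases was not run. No paired analysis was possible because the list holds no value per library or genotype. Unknown depth limits every count: regions too weak to be called are missing.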
